A study of Mus musculus with 8 samples.

Results

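The cytosolic ribosomal protein genes were followed in bulk RNA-seq of mouse myeloid cells. They were taken as the protein-coding genes of the deposited table whose symbols begin with Rpl or Rps followed by a number, with Rplp0, Rplp1, Rplp2 and Rpsa. The ribosomal S6 kinases and the symbols that name pseudogenes or related sequences were left out. This gave 86 of 38026 genes, 52 with large-subunit symbols and 34 with small-subunit symbols, on 19 chromosomes. The samples were 5 libraries of tumor-associated microglia and macrophages (TAMs) from medulloblastoma, in mice aged 68, 90, 61, 66 and 62 postnatal days for replicates 1 to 5. They were set against 3 libraries of normal microglia from cerebral cortex of mice aged 60 postnatal days. All mice were of strain C57BL/6, cells of both groups were captured with CD11b magnetic beads, and RNA was extracted with Trizol. The labels do not name the tumor model or say whether animals were pooled, so p-values measure the spread between these libraries. The tissue of origin and, to a varying degree, the age differ between the groups along with the tumor, and these cannot be told apart.

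The cytosolic ribosome joins a small subunit, which reads the mRNA, to a large subunit, which forms the peptide bond. Their proteins are needed in balanced amounts and their genes are among the most highly expressed of any cell, microglia and macrophages included. Most of their mRNAs begin with a terminal oligopyrimidine (TOP) tract, through which mTOR signalling controls their translation. Because these mRNAs are so abundant, reverse transcription has left many intron-less copies of them in mammalian genomes. Reads from a gene and from a near-identical copy are hard to assign, so each gene was examined beside its copies.

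Values were in TPM, length-corrected transcript shares scaled to a common total, a unit that holds no read depth, so how deeply the libraries were sequenced is unknown. CD11b itself is a myeloid integrin. The summed TPM of 5 microglia markers was 2317 to 6757 in TAMs and 12824 to 15509 in microglia. Endothelial markers summed to 10.1 to 58.8 TPM in TAMs and 452 to 1354 TPM in microglia, and mural, astrocyte and oligodendrocyte markers were also called lower in TAMs, 13 of 13 genes of these 4 lists. Granule-lineage markers summed to 1.91 to 28.5 TPM in TAMs and 0.163 to 0.213 TPM in microglia, neutrophil markers to 53.7 to 393 TPM in TAMs and 11.2 to 28.0 TPM in microglia, and cell-division genes to 68.6 to 106 TPM in TAMs and 13.7 to 21.3 TPM in microglia. The part of these other cells in the results below was not tested. In bulk RNA, fewer cells of a type and less RNA per cell cannot be told apart.

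Near-identical copies were found for 76 of the 86 genes. A copy was a listed gene whose transcript matched that of a ribosomal protein gene with an identity of at least 95%, along at least 80% of the copy. A protein-coding match counted only if its symbol began with Gm and a number or with Rps3a, held -ps or -rs, or ended in rt. The 86 genes themselves were not taken as copies. There were 431 copies, 397 annotated as pseudogenes and 34 as protein-coding, and 429 of them had 1 exon, whereas 92 of 94 matched parent transcripts had 2 or more exons. The largest sets were the 39 copies of Rpl21, the 23 of Rpl29 and the 21 of Rps2. Few copies carried signal. On average over the libraries 36 copies reached 100 TPM, and these held 97.7% of all TPM listed on copies, while 83 copies were at 0 in every library.

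The closeness of gene and copy is shown by 3 pairs whose values switched between libraries. Each line below gives the same 90 coding bases from the GENCODE M21 transcripts (GRCm38, the assembly of mm10), 5′ to 3′, with capitals at the bases that differ between gene and copy. Rpl3 (chr15:80077794-80091868, minus strand, 10 exons) and Rpl3-ps1 (chrX:13202571-13203780, plus strand, 1 exon) differed at 2 of 1209 aligned coding bases. Rps2 (chr17:24718116-24721929, plus strand, 5 exons) and Rps2-ps13 (chrX:52898588-52899469, plus strand, 1 exon) differed at 7 of 882. Rpl35a (chr16:33056453-33060189, plus strand, 5 exons) and Gm10243 (chr6:48523518-48523850, plus strand, 1 exon) differed at 1 of 333.
Rpl3: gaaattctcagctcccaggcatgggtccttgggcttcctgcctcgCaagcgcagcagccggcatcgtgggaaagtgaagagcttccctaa
Rpl3-ps1: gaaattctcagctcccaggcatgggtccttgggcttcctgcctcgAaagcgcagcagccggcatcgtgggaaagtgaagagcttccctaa
Rps2: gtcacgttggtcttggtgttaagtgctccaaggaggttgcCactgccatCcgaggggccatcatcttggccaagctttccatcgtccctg
Rps2-ps13: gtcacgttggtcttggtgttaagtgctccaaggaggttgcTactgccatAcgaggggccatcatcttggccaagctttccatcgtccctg
Rpl35a: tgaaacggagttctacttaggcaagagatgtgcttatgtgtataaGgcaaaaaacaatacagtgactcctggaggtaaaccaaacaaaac
Gm10243: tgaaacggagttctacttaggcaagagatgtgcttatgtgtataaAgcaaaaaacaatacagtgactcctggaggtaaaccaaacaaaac

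Rpl3, a large-subunit protein near the peptidyl transferase centre, had the largest listed difference of any ribosomal protein gene. It was listed at 391, 785, 704, 404 and 860 TPM in TAMs, against 1.65, 2.08 and 2.79 TPM in microglia. Its copy Rpl3-ps1 was listed at 336, 1.92, 1.18, 346 and 2.00 TPM in TAMs, against 732, 667 and 672 TPM in microglia. The TAM libraries with the lower Rpl3 values, replicates 1 and 4, were those with much TPM on the copy, and the microglia libraries had nearly all of it there. Rpl3 with its 4 copies summed to 728, 787, 705, 750 and 862 TPM in TAMs, against 734, 669 and 675 TPM in microglia, and the groups overlapped. The log2 fold change on log2(TPM + 1) was 7.57 (limma adjusted p = 4.5e-06) for the gene as listed and 0.14 ± 0.10 (SE, limma adjusted p = 0.228) with copies.

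Rpl26 and Rpl29, both large-subunit proteins, followed the same form. Rpl26 was listed at 1299, 1322, 1122, 1277 and 1386 TPM in TAMs, against 226, 203 and 465 TPM in microglia, while its copy Gm15772 was at 1.13 to 2.45 TPM in TAMs and 777 to 1072 TPM in microglia. Rpl29 was listed at 3.24, 693, 647, 675 and 4.06 TPM in TAMs, against 3.04, 3.43 and 4.27 TPM in microglia, and its copy Gm13841 was at 745 and 862 TPM in the TAM replicates 1 and 5 in which the gene was low, and at 635 to 649 TPM in microglia. With copies, the log2 fold change of Rpl26 was 0.03 in place of 2.20 and that of Rpl29 was 0.16 in place of 4.33, and neither was called with limma (adjusted p = 0.834 and 0.247).

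Rps2, a small-subunit protein at the entry of the mRNA channel, was listed at 1092, 1267, 1171, 533 and 13.9 TPM in TAMs, against 133, 188 and 271 TPM in microglia. As listed it was not called (log2 fold change 1.14 ± 1.39, SE, limma adjusted p = 0.485). With its 21 copies it was at 1097, 1272, 1177, 1084 and 1288 TPM in TAMs, against 784, 753 and 729 TPM in microglia. The groups then lay apart, and Rps2 rose by 0.64 ± 0.10 on the log2 scale (SE, limma adjusted p = 0.00107). Rps2 was thus called only with its copies counted, the reverse of Rpl3.

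**Figure D1:**
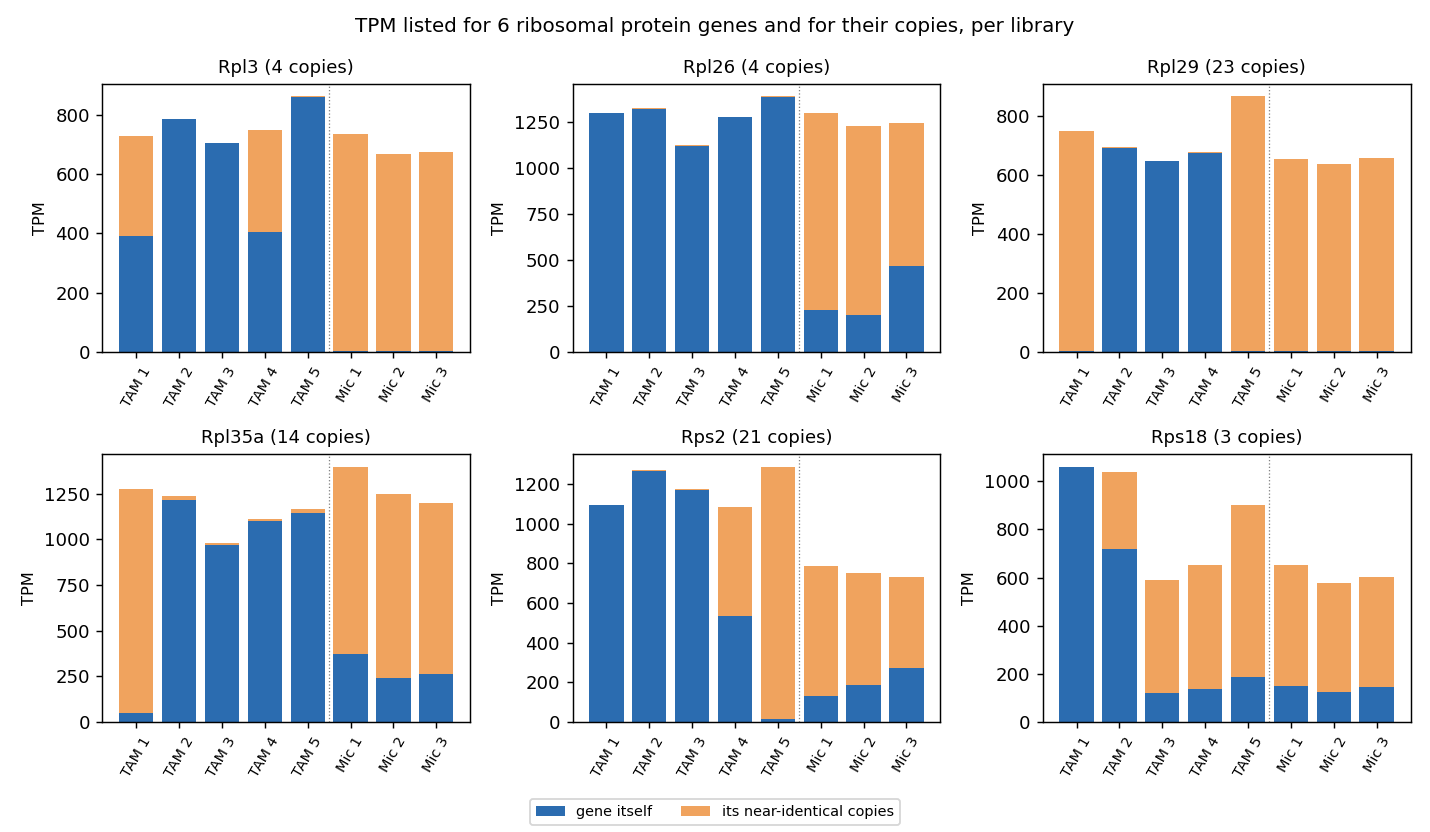
TPM (vertical axis, linear) in each TAM library (left) and microglia library (Mic, right) for 6 ribosomal protein genes, with the gene's own value in blue and its copies stacked above in orange. The blue part of Rpl3 is 391 to 860 TPM in TAMs and 1.65 to 2.79 TPM in microglia, while the whole bar is 705 to 862 TPM in TAMs and 669 to 734 TPM in microglia.

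In 10 families the copies held more than 50% of the TPM in some libraries and less in others. They were those of Rpl3, Rpl26, Rpl29, Rpl35, Rpl35a, Rps2, Rps3a1, Rps7, Rps18 and Rpsa, and in 7 of them the majority changed sides among the TAM libraries themselves. Rpl35a was listed at 51.9 TPM in TAM replicate 1 and at 969 to 1216 TPM in the other 4 TAM libraries, against 371, 241 and 261 TPM in microglia. Rps18 was listed at 1060 and 717 TPM in TAM replicates 1 and 2, at 120, 136 and 186 TPM in TAM replicates 3 to 5, and at 150, 127 and 145 TPM in microglia. The libraries that were high therefore differed from gene to gene, and no TAM library stood apart from the others in all of these families. Rpl35 differed from the rest, since its copies stayed near an even share, at 48.7% to 53.1%.

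In 18 other families the copies held more than 50% in every library that had any TPM on the family. Rpl31 was listed at 12.6 to 15.5 TPM in TAMs and 8.78 to 10.7 TPM in microglia, and its copy Rpl31-ps8 at 1403 to 1674 TPM in TAMs and 1325 to 1408 TPM in microglia. Rpl34, Rpl27a and Rpl5 likewise had 94.9% or more of their TPM on copies in every library. The copy with the highest mean matched its parent at 100% identity in 13 of these 18 families, in 0 of the 10 switching families (99.1% to 99.8%), and in 4 of 47 families in which copies stayed below 50%. Rps27 is counted among the 18 only because it was listed at 0 in all 8 libraries, with 0 to 1.24 TPM on its copies in TAMs and 1.40 to 2.82 TPM in microglia. Rps27rt, a protein-coding gene that matches Rps27 at 100% identity over 341 bases, was listed at 1666 to 2307 TPM in TAMs and 2258 to 2541 TPM in microglia. Rpl10l, a retrocopy of the X-linked Rpl10 used in mouse male germ cells, was at 0 throughout.

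**Figure D2:**
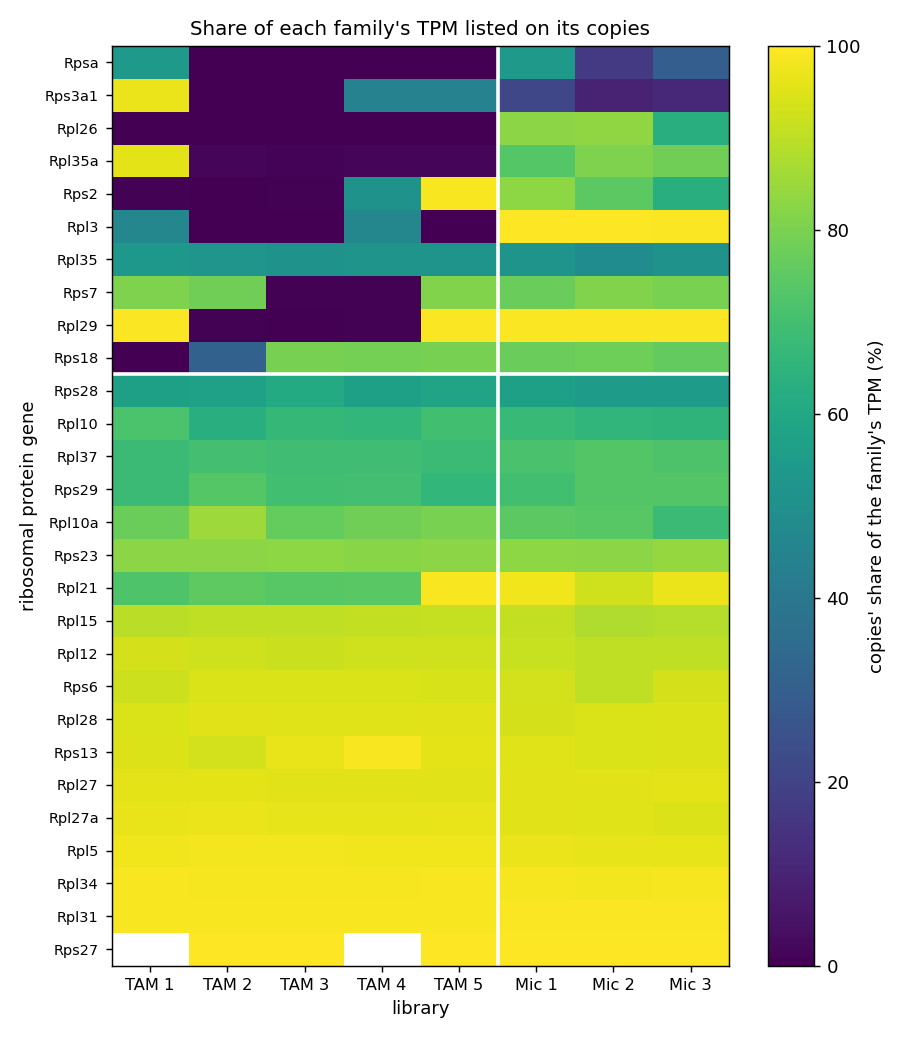
Share of family TPM listed on copies (colour, 0 to 100%), with TAM libraries on the left and microglia (Mic) on the right. The 10 switching families are above the white line. Below it are the 18 families with more than 50% on copies in every library that had TPM on the family. White cells are libraries with 0 TPM on the whole family. Rpl3 has at most 46.2% on its copies in TAMs and at least 99.6% in microglia.

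The ribosomal protein genes as listed summed to 57942, 67570, 55695, 59111 and 66236 TPM in TAMs, against 55770, 49733 and 50626 TPM in microglia. The ranges touched, since TAM replicate 3 lay just below microglia replicate 1. The mean was 61311 ± 5272 TPM in TAMs (SD, n = 5) and 52043 ± 3259 TPM in microglia (SD, n = 3). With copies the sums were 83574, 92766, 76851, 83445 and 96735 TPM in TAMs, against 84169, 75181 and 76209 TPM in microglia, and the groups overlapped more. Copies held 30.7%, 27.2%, 27.5%, 29.2% and 31.5% of these sums in TAMs and 33.7%, 33.8% and 33.6% in microglia. The share was lower in every TAM library than in every microglia library.

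**Figure D3:**
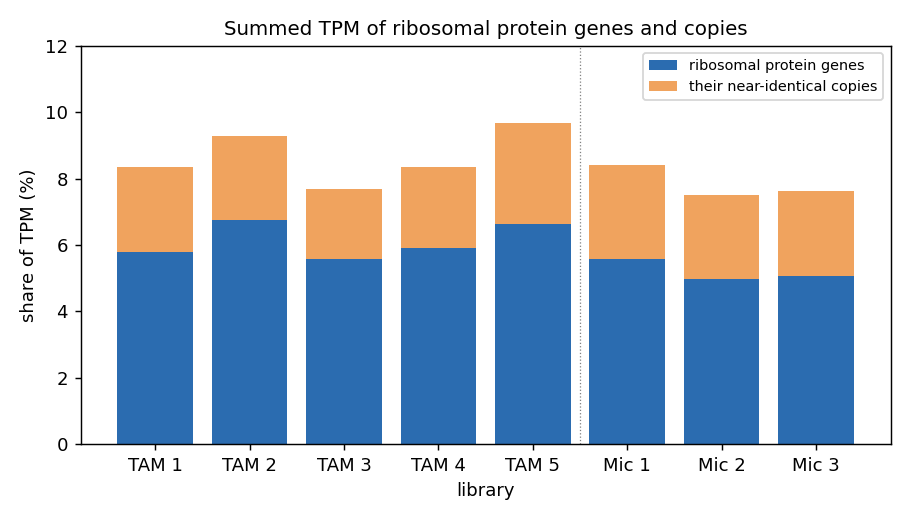
Summed TPM as a share of the TPM scale (vertical axis, %) of the ribosomal protein genes (blue) and their copies (orange) in each TAM library (left) and microglia library (Mic, right). Genes and copies together take 7.69% to 9.67% in TAMs and 7.52% to 8.42% in microglia.

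Against this background the comparison of TAMs with microglia was made on the genes as listed and with copies added. As listed, 84 genes passed the filter of 1 TPM in 3 libraries, and 19 were called higher and 2 lower in TAMs (limma, adjusted p under 0.05 over all genes). Among all 15262 genes tested 8.22% were called higher and 56.4% lower. With age as a covariate 10 ribosomal protein genes were called higher, and with TPM computed over coding genes alone 37 were. Of all genes tested, 1194 were called higher with age as a covariate, against 1254 without it. Of the coding genes tested with TPM over coding genes alone, 1614 were. All microglia mice were of the same age and every TAM mouse was older. The age slope thus rests on the TAM libraries alone, and this fit cannot fully separate age from group. With copies summed 85 genes were tested, 17 were called higher and 2 lower, and the background was 8.26% higher and 56.7% lower. The median log2 fold change with copies was 0.16, against a median of -0.65 over all genes tested. The calls of Rpl3, Rpl26, Rpl31, Rpl5 and Rpsa were lost with copies, those of Rpl12 and Rps2 were gained, and 15 genes were called higher both ways. With copies the 2 groups did not overlap for 20 genes that were higher in TAMs and for 2 that were lower, against 7.97% and 49.9% of all genes tested. The 19 calls as listed fell to 11 without microglia replicate 2 and to 10 without microglia replicate 3, and the 17 with copies fell to 9 without either of them. Of all genes as listed, those called higher ranged from 894 to 1303 when each library was left out. The calls of Rpl3, Rpl26 and Rpl5 as listed held in all 8 fits that left out a library, although adding copies ended them. The genes called lower were Rpl3l and Rpl5 as listed, and Rpl3l and Rps27 with copies. As Rps27 itself was at 0, its value with copies is that of its 2 low copies alone. That value leaves out the matching Rps27rt, which was counted as a gene of its own, so the call does not show a fall of Rps27. The call of Rpl3l was lost without TAM replicate 1, 2 or 3 or any microglia library, and that of Rps27 without TAM replicate 1 or 4 or microglia replicate 2 or 3. That of Rpl12 with copies was lost without TAM replicate 2 or 4 or microglia replicate 2 or 3.

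Adding copies also drew the genes together. As listed, 73 of 84 genes lay within 0.7 of 0 on the log2 fold-change scale, against 83 of 85 with copies, and 11 genes moved by more than 0.5. Within TAMs the SD of log2(TPM + 1) had a median of 0.17 and a maximum of 3.94 as listed, with 8 genes above 1. With copies its median was 0.16 and its maximum 0.99. The genes beyond 0.7 with copies were Rpl3l, a paralog of Rpl3 known from striated muscle, and Rps27, both at or under 3.31 TPM in every library.

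**Figure D4:**
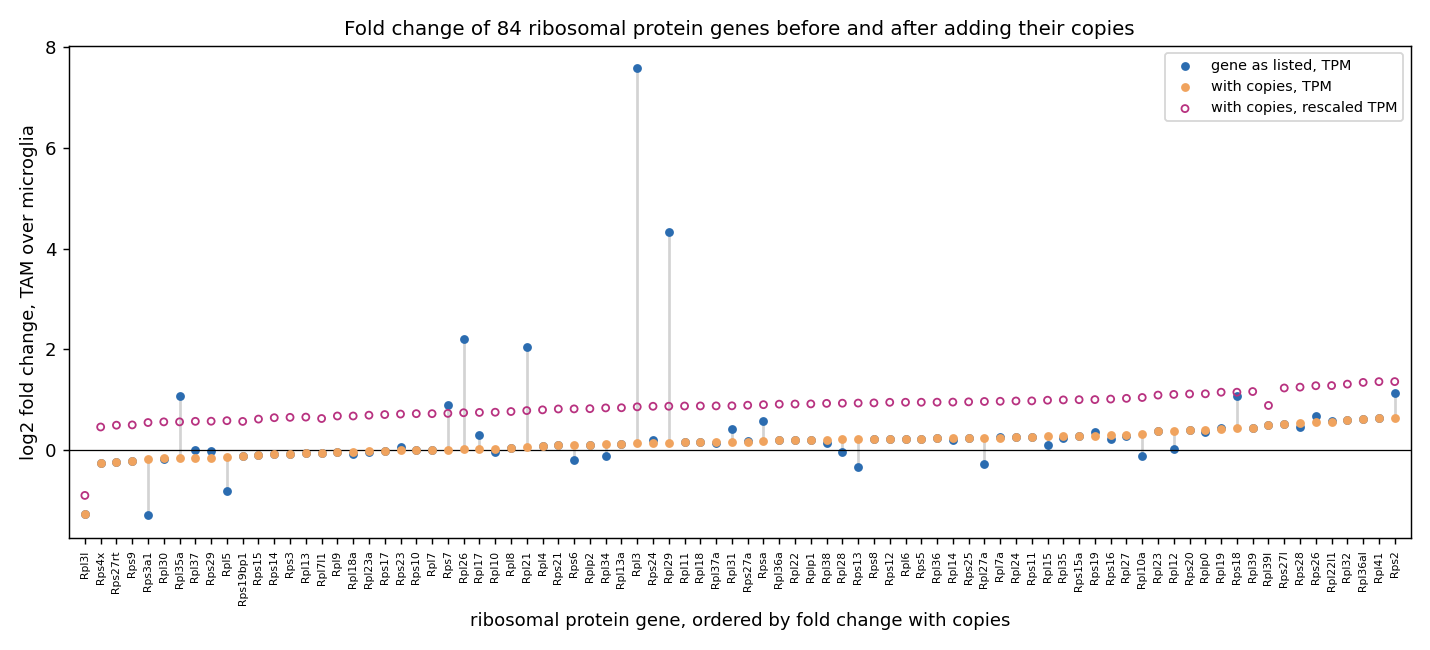
Log2 fold change of TAMs over microglia (vertical axis) for 84 ribosomal protein genes ordered by their value with copies, showing the gene as listed (blue), with copies (orange) and with copies on rescaled TPM (open circles). Rpl3 drops from 7.57 as listed to 0.14 with copies, and apart from Rpl3l the open circles lie above 0.

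Of the genes called higher with copies, 9 were also called in each fit that left out a library, namely Rpl19, Rpl22l1, Rpl32, Rpl36al, Rpl41, Rps2, Rps26, Rps27l and Rps28. Rpl41, the shortest ribosomal protein, was listed at 1539, 1575, 1515, 1625 and 1574 TPM in TAMs, against 1040, 1006 and 960 TPM in microglia. Rpl32, a large-subunit protein, was listed at 1611, 1725, 1446, 1507 and 1909 TPM in TAMs, against 1182, 1034 and 1033 TPM in microglia. Every TAM library was above every microglia library for both genes. They rose by 0.64 ± 0.10 and 0.59 ± 0.13 on the log2 scale with copies (SE, limma adjusted p = 6.7e-04 and 0.0038), and copies held at most 0.456% of either. Rps28, a small-subunit protein, rose by 0.53 with copies (limma adjusted p = 0.00297). Rps26, which lies near the mRNA exit channel, rose by 0.56 with copies (limma adjusted p = 0.00446), and Rpl19 rose by 0.43 (limma adjusted p = 0.00586).

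The fold changes by role that follow are on log2(TPM + 1) with copies. The stalk proteins recruit the GTPases that drive translation. Rplp1 was the highest of all ribosomal protein genes as listed, at 3012, 3303, 3136, 3412 and 3222 TPM in TAMs, against 3217, 2434 and 2789 TPM in microglia, and the groups overlapped. Its log2 fold change with copies was 0.20 and that of Rplp2 was 0.11, neither called with limma (adjusted p = 0.21 and 0.388). Rplp0, which anchors the stalk, was the stalk gene that was called, with 830, 947, 815, 868 and 976 TPM in TAMs, against 758, 631 and 682 TPM in microglia, and a log2 rise of 0.40 with copies (limma adjusted p = 0.0162, lost without microglia replicate 2 or 3).

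Rpl5 and Rpl11 bind 5S rRNA and can inhibit Mdm2, the regulator of p53. Rpl5 was listed at 13.8, 14.2, 12.2, 16.1 and 18.0 TPM in TAMs, against 23.4, 27.7 and 28.4 TPM in microglia, and was called lower as listed (log2 fold change -0.80, limma adjusted p = 0.00198). Its copy Gm15500, identical over the matched transcript, was listed at 620 to 751 TPM in TAMs and 716 to 814 TPM in microglia. With copies the log2 fold change of Rpl5 was -0.13 and that of Rpl11 was 0.16, neither called with limma (adjusted p = 0.273 and 0.169).

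Of the exit-tunnel proteins, Rpl39 rose by 0.45 with copies (limma adjusted p = 0.0159, lost without microglia replicate 2 or 3), while Rpl4 and Rpl17 had log2 fold changes of 0.08 and 0.03 and were not called. Rps6, the target of the S6 kinases downstream of mTOR, was at 0.10 with copies and was not called. Rpl13a, which in human monocytes can leave the ribosome and silence inflammatory mRNAs, was listed at 1550 to 2287 TPM in TAMs and 1690 to 1805 TPM in microglia, and was not called. Rps4x, Rps9 and Rps27rt had the lowest values among highly expressed genes, with log2 fold changes of -0.26, -0.21 and -0.22 that were not called. Rpl7l1 and Rps19bp1 carry ribosomal protein symbols but are not structural subunits, and neither was called.

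Several ribosomal protein genes have a paralog, and the 2 were compared within each library as the log2 ratio of paralog to parent, with 1 TPM added to both. The log2 ratio of Rpl22l1 to Rpl22, which in mouse represses its paralog, was -1.26 ± 0.20 in TAMs (SD, n = 5) and -1.63 ± 0.08 in microglia (SD, n = 3), a difference of 0.38 (exact two-sided permutation p = 0.0714). The ratio of Rpl36al to Rpl36a was higher in TAMs by 0.43 (exact permutation p = 0.0357), and that of Rps27l, a p53-inducible paralog in human cells, to Rps27rt by 0.75 (exact permutation p = 0.0357). As Rps27 was at 0, the last pair was chosen with these values in view. The value 0.0357 is the smallest that 5 libraries against 3 can give. Over the 6 pairs tested the adjusted p of these ratios was 0.0714 or more, so none passed 0.05. Rpl3l, at 3.31 TPM or less, has a ratio to Rpl3 that depends on the added TPM. With the copies of Rpl3 it differed between TAMs and microglia by -1.40 with 1 TPM added and by -3.51 with none (exact permutation p = 0.0357 and 0.0714), and as listed by -8.83 and -11.5. Rpl39l to Rpl39 differed by 0.06 with 1 TPM added and by 0.16 with none, and Rpl7l1 to Rpl7 by -0.06 either way.

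The median of all genes lay at -0.65 on TPM, so the ribosomal protein genes were also read on rescaled TPM, where a factor per library, the median over genes of its ratio to an average library, is divided out. The median of all genes is then -0.04. Mir6236, Mir6240 and Gm15662 together took 25.5%, 24.8%, 20.7%, 20.2% and 13.5% of the TPM scale in TAMs, against 15.3%, 3.18% and 9.15% in microglia. TAM replicate 5 was below microglia replicate 1. TPM over coding genes alone leaves these features out. With it the median log2 fold change was 0.37 for the ribosomal protein genes as listed and -0.48 for all coding genes tested. The dividing factors were 0.749 to 1.05 in TAMs and 1.17 to 1.55 in microglia. On this scale 77 of 85 genes with copies were called higher and 0 lower (limma), against 24.7% and 25.2% of all genes tested, and at an unadjusted p under 0.05 still 0 were lower. Without TAM replicate 5, Rpl3l was called lower. As listed, 68 of 84 were called higher and 0 lower, against 24.6% and 25.1%. The median log2 fold change with copies was 0.88. Rpl3 with copies was at 0.86 ± 0.15 (SE, limma adjusted p = 0.00216), close to that median. The 8 tested genes not called were Rpl39l, Rpl3l, Rpl7l1, Rps27, Rps27rt, Rps29, Rps4x and Rps9.

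In the authors' deposited table, in which the authors used DESeq2, 79 of 84 ribosomal protein genes were higher and 0 lower at a Benjamini-Hochberg adjusted p under 0.05, against 17.6% higher and 16.0% lower over the 27039 genes with a p-value. The median log2 fold change of the ribosomal protein genes in the authors' deposited table, positive where TAMs are higher, was 0.99, and that of all its genes was -0.10. The authors' values are for the genes as listed, with no copies added. They include log2 fold changes of 8.88 for Rpl3, 5.19 for Rpl29 and 2.91 for Rpl26.

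The rest of the translation machinery was read as listed, without adding copies, against the 8.22% higher and 56.4% lower of all genes tested on TPM, and the 24.6% higher and 25.1% lower on rescaled TPM. Fau, which encodes a ubiquitin-like protein fused to a ribosomal protein, had a log2 fold change of 0.11 and was not called on TPM. Of 37 initiation factors, 0 were called higher and 13 lower on TPM (limma; 0 higher at an unadjusted p under 0.05), but 27 higher and 2 lower on rescaled TPM. The 2 lower on both scales were Eif4a2, an mRNA helicase, and Eif5, which triggers GTP hydrolysis on the initiation complex, with rescaled log2 fold changes of -0.38 and -0.41. Without microglia replicate 2 or 3 the 13 initiation factors lower on TPM fell to 6, and without TAM replicate 1 there were 2 higher. Of 11 elongation and termination factors, 2 were higher and 3 lower on TPM, and 9 higher and 0 lower (limma; 0 lower at an unadjusted p under 0.05) on rescaled TPM, where the 9 fell to 4 without microglia replicate 2 or 3. The 2 higher on TPM, Eef1g and Eif5a, were both lost without any 1 of the microglia libraries, and 1 of them without TAM replicate 3 or 4.

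Of 42 ribosome biogenesis genes, 1 was higher and 23 lower on TPM, where 8.22% and 56.4% of all genes tested were, so that the share called lower is near that of all genes. On rescaled TPM 16 were higher and 1 lower, against 24.6% and 25.1% of all genes tested. Npm1, a nucleolar chaperone of ribosome assembly, was the gene higher on TPM, at 241 to 281 TPM in TAMs and 180 to 192 TPM in microglia. Ubtf, a factor of RNA polymerase I transcription, was lower on both scales (log2 fold changes of -1.01 on TPM and -0.30 on rescaled TPM), though on rescaled TPM the call was lost without TAM replicate 1, TAM replicate 3 or microglia replicate 2. Without microglia replicate 3 the 23 lower biogenesis genes fell to 9, and without microglia replicate 2 to 11, while the 16 higher on rescaled TPM fell to 8 without either. Without TAM replicate 5 there were 2 higher on TPM. Of 19 regulators of TOP mRNAs and of ribosomal gene expression, 14 were lower on TPM, and 3 were higher and 4 lower on rescaled TPM, shares of the rescaled calls below those of all genes tested (24.6% and 25.1%). Those lower on both scales were Myc, a transcription factor, Tia1 and Tial1, binders of TOP mRNAs, and Rptor, a subunit of mTOR complex 1. The 3 called higher on rescaled TPM were among Eif4ebp1, Eif4ebp2, Max and Mlst8, the 4 higher there at an unadjusted p under 0.05 (limma). The 14 fell to 8 without microglia replicate 2 or 3, and the rescaled call of Rptor was lost without microglia replicate 1 or 3. Of 76 mitochondrial ribosomal protein genes, 22 were higher and 13 lower on TPM (8.22% and 56.4% of all genes tested), and 61 were higher and 0 lower on rescaled TPM (limma; Mrps5 alone was lower at an unadjusted p under 0.05), and the 22 fell to 13 without microglia replicate 3. Without microglia replicate 2, 1 was called lower on rescaled TPM. The median rescaled log2 fold change was 0.88 for cytosolic ribosomal protein genes with copies, 0.67 for mitochondrial ones, 0.56 for initiation factors and 0.25 for biogenesis genes. These differences between lists were not tested.

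**Figure D5:**
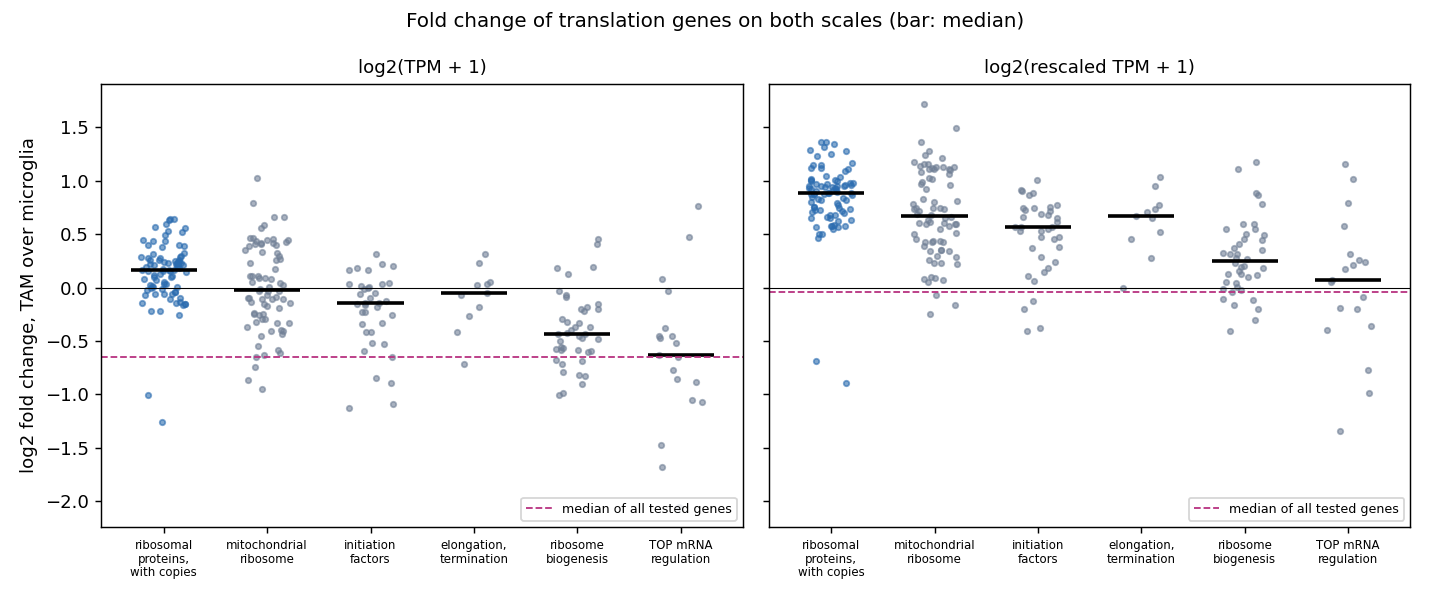
Log2 fold change of TAMs over microglia (vertical axis) for each gene of 6 translation lists, on log2(TPM + 1) at left and log2(rescaled TPM + 1) at right, with the median of each list as a black bar and the median of all tested genes as a dashed line (-0.65 at left, -0.04 at right). Ribosomal protein genes with copies have the highest median of the 6 lists on both scales, 0.16 and 0.88.

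Promoters were available from RefSeq (GRCm38.p6) for 66 of the 86 genes, 78 windows from 250 bases before to 50 after the annotated start. The motif CGGAAG, on either strand, was in 60.3% of these windows and in 16.9% of 32851 windows of all genes. TATAAA, on either strand, was in 8.97% and 13.6%. A pyrimidine start, taken as C at the annotated first base with C or T at the next 4, was in 17.9% and 2.51%. This count depends on the annotated start being exact to the base, which was not tested, so it is not the share of mRNAs with a TOP tract. The promoters of Rpl41 (chr10:128549159-128549308, minus strand), called higher on both scales, and Rps18 (chr17:33955656-33955805, minus strand), a switching family, are shown for 140 bases before and 10 from the start. Capitals mark CGGAAG on either strand, at 2 sites in Rpl41 and 3 in Rps18.
Rps18: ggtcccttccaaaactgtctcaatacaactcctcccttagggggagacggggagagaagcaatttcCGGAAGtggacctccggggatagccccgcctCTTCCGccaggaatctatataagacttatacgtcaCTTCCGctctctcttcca
Rpl41: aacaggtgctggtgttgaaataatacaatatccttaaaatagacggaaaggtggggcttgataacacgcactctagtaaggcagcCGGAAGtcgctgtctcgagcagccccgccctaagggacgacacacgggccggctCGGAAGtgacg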

How the data were processed

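The deposited table of 38026 genes has a TPM column for each library, which the authors computed, per the file headers. It also holds the authors' DESeq2 mean signal, log2 fold change and unadjusted p-value, per the file headers. Per the submitters' processing notes, the authors used mm10, FastQC and DESeq2. The quantifier was not given in the sources used here, so how reads were split between near-identical copies is unknown. A further 3 unnamed columns were not used.

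Genes reaching 1 TPM in 3 or more libraries were tested with limma 3.58.1 (R 4.3.3) with an intensity trend on log2(TPM + 1), over all 8 libraries with no covariate. Adjustment was by Benjamini-Hochberg over all genes tested. Fold changes on this scale understate the change of low genes. Copies were found with blastn 2.17.0 against GENCODE M21 transcripts (GRCm38) and added to their parent's TPM. The fit was tested on simulated data with known changes, in which 15062 of 15262 genes were left unchanged. Many more genes were called in the real data, so the cutoff after adjustment differs. The simulated counts therefore do not give the share of true changes called there. It called 28 of 68 genes in the right direction at a simulated log2 change of 1. At a change of 2 it called 55 of 66, and at 4 it called 63 of 66. Smaller changes were not simulated, so a gene not called may still differ by a small amount.

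The genes, lists and tests were chosen with earlier results of these data known. Genes named are Rpl3, those of highest level, largest change or largest copy share, those with paralogs or with a set role, those not passing the filter, and the called genes of lowest p (at most 4) from each other list. Others, including Rps28, Rpl41, Rps26, Rpl19, Rpl35a, Rps7 and Rpsa, were named after their values were seen. Sums that include coding-annotated copies were an addition made with the data in view. Replicate numbers were not taken to pair the samples. Deviations from the group mean correlated at 0.150, 0.014 and -0.051 between same-numbered libraries, and at -0.118 to 0.083 between the others. So few values cannot settle whether the numbers mark pairs. Alternatives covered the scale, pseudocount, filter, age, a replicate block, copies and leaving out each library.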

Additional observations from a re-analysis of the deposited data

Results flagged for a closer look

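In the 5 TAM libraries, a value was singled out when its gap to the nearest other value was large against the whole range. Such a rule picks about 1 in 20 groups by chance, and the groups of 3 microglia libraries were not tested. Rpl21 was listed at 23.8 TPM in TAM replicate 5, below 319 to 343 TPM in the other TAM libraries. Rpl21 with copies was 2031 TPM in the same library, above 1201 to 1345 TPM in the others, so the gene was lowest where its family was highest. Rps27l was 148 TPM in TAM replicate 2, above 98.9 to 109 TPM in the others, and it has no copies. Rpl10 with copies was 2261 TPM in TAM replicate 2, above 1608 to 1796 TPM in the others. Among the other translation genes, Eif1 was 491 TPM in TAM replicate 2, Mrpl34 was 56.7 TPM in TAM replicate 3, and Mrps5 and Tial1 were 36.3 and 72.4 TPM in TAM replicate 5, each above the other TAM libraries. TAM replicate 2 is from the oldest mouse (90 postnatal days) and TAM replicate 5 has the TAM dividing factor nearest to microglia (1.05). The part of age or scale in these values was not tested.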

How the results depend on the processing

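The scale decided most counts. On rescaled TPM 68 ribosomal protein genes were higher and 0 lower, with a median log2 fold change of 0.91. With pseudogene copies summed 76 were higher and 0 lower, and with all copies 77 and 0, both with a median of 0.88. All genes then gave 3755 higher and 3837 lower (median -0.039), 3742 and 3830 with pseudogene copies (-0.039), and 3741 and 3831 with all copies (-0.040). On these 3 rescaled settings alike, higher and lower genes were 27 and 2 for initiation, 9 and 0 for elongation, 16 and 1 for biogenesis, 3 and 4 for regulators of TOP mRNAs, 61 and 0 for the mitochondrial ribosome, and 3 higher among the other ribosome components. On coding genes alone 37 ribosomal protein genes were higher (median 0.37), against 1614 of all coding genes tested (median -0.48). There 4 initiation genes were higher and 7 lower, and 3 biogenesis genes, 2 other components and 1 regulator were higher. With no filter the median of all genes was -0.31. With age as a covariate 10 ribosomal protein genes were higher and 1 lower, against 1194 and 7395 of all genes. In that fit 0 elongation genes were higher, and 14 biogenesis genes and 9 regulators were lower. The replicate block, whose numbers were not taken to pair the samples, gave 11 ribosomal protein genes higher, against 1103 of all genes. With it 0 elongation and 2 biogenesis genes were higher. Summed TPM of TAMs and microglia was 86194 and 65349 over coding genes alone, 82696 and 74899 with pseudogene copies, and 86674 and 78520 with all copies. Pseudogene copies held 25.8% of family TPM in TAMs and 30.5% in microglia, 29.3% in microglia at 98% identity, and 29.2% and 33.7% with coding-annotated copies. The cause of these shifts was not tested.

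Signs of genes called on either scale turned on rescaled scales, while on TPM copies turned the sign of 9 genes that were called neither way. Rps3a1 turned to 0.55, Rpl5 to 0.59, Rps13 to 0.94 and Rpl27a to 0.97 with copies. Rpl10 turned to 0.69 as listed, 0.69 with pseudogene copies and 0.76 with all, Rpl34 to 0.57 and 0.84, and Rps6 to 0.52 and 0.82. Eif1 turned to 0.065, Abce1 to 0.27, Eef1d to 0.45, Noc2l to 0.12, Cnbp to 0.067 and Mrpl24 to 0.076.

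Leaving out each library in turn, ribosomal protein genes called higher ranged from 10 to 20 as listed, 9 to 19 with copies, 53 to 72 on rescaled TPM and 60 to 81 with copies on rescaled TPM. Those called lower ranged from 1 to 2 as listed, 0 to 2 with copies, and 0 to 1 on rescaled TPM. Their median ranged from 0.73 to 1.01 on rescaled TPM and from 0.72 to 0.98 with copies. Of all genes as listed, those higher ranged from 894 to 1303 and those lower from 5581 to 9243. On rescaled TPM 2485 to 3943 of all genes were higher and 2144 to 4068 lower. Initiation genes ranged from 0 to 2 higher and 6 to 13 lower, elongation genes from 0 to 2 higher (4 to 10 rescaled), biogenesis genes from 1 to 2 higher and 9 to 29 lower (8 to 17 higher and 0 to 1 lower rescaled), regulators of TOP mRNAs from 8 to 15 lower, and mitochondrial ribosomal genes from 13 to 22 higher (0 to 1 lower rescaled). The lowest counts of ribosomal protein genes higher on TPM came without microglia replicate 2 or 3. So did the lowest counts of all genes lower on TPM and called either way on rescaled TPM. TPM without read depth gives no limit of detection, and how reads were shared between copies limits every value of a gene with copies.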
